A study of Homo sapiens with 12 samples.

Results

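Regrowth after MAPK inhibition was followed as the change in cytoplasmic RNA between cells kept for 2 days and cells kept for 9 days without drug. Both groups were A375, an established human melanoma line that carries an activating BRAF mutation, and both had first spent 72 h under combined MAPK inhibition (MAPKi), with the BRAF inhibitor vemurafenib and the MEK inhibitor cobimetinib at 500 nM each. Cells at day 2 are the persister cells (PC) and cells at day 9 the recovered cells (RC). The comparison used 6 of the 12 libraries, 3 of PC and 3 of RC, and covered 15916 tested genes of the 44659 in the table. The other 6 libraries were treated cells (TC), harvested at the end of the 72 h of drug, and control cells (CC), given the solvent DMSO for 72 h. RNA came from the cytoplasmic fraction, ribosomal RNA was depleted and cells were split when they needed it. Each group has 1 day label, day 2 for PC, day 9 for RC and day 0 for both TC and CC. Harvest day and group thus cannot be told apart in RC against PC, nor in PC or RC against CC. Nothing in the labels says that the 3 libraries of a group came from separate cultures, and p-values then measure only the spread between these libraries, which may be technical.

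The BRAF, MEK and ERK kinases form the MAPK cascade, through which melanoma cells with mutant BRAF drive their own division. ERK switches on transcription factors, cyclin D and, as a brake on itself, phosphatases and Sprouty proteins. When the cascade is blocked most such cells leave the cycle, and the survivors, called persisters, can change their differentiation state and start to divide again once the drug is gone.

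Total counts ran from 37773389 to 55263060 in the 6 libraries of PC and RC. Levels are given as normalised CPM, the gene's share of a library's counts after scaling, and a count of 3 was at most 0.0794 CPM in any library. The first principal component held 70.1% of the variance and placed PC between -86.0 and -84.4, beside TC (-82.1 to -73.5), and RC between 79.9 and 82.8, beside CC (80.4 to 83.3). RNA of pigmentation genes was present in both groups: the summed level of 16 such genes was 3837 to 5919 CPM in PC and 2051 to 2113 CPM in RC. The summed level of 8 leukocyte markers was 0.523 to 1.5 CPM in PC and 1.53 to 1.77 CPM in RC, with PTPRC at most 0.694 CPM in any of the 6. The 4 endothelial markers summed to 1.74 to 2.01 CPM in PC and 3.33 to 3.59 CPM in RC. The 5 keratinocyte markers summed to 95.2 to 104 CPM in PC and 55.7 to 61.1 CPM in RC, and KRT14, a keratin of basal keratinocytes, stood at 1.93 to 2.64 CPM in PC and at most 0.0492 CPM in RC. The part of these other markers in the results was not tested. In RNA from whole cultures, fewer cells of a kind and less RNA per cell cannot be told apart.

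Most of the transcriptome differed between the persister and the recovered cells, and about as many genes were higher as lower. At an adjusted p under 0.05 (edgeR), 5676 genes (35.7% of those tested) were higher and 5438 (34.2%) lower in RC. Because most genes pass that test, the counts that follow use a stricter call, for which edgeR tested the change against 1.5-fold and adjusted p had to be 0.05 or less. It was met by 3214 genes higher in RC (20.2%) and 2951 lower (18.5%). Of these, 961 were over 4-fold higher and 956 over 4-fold lower, and 385 were over 8-fold higher and 449 over 8-fold lower. The median log2 fold change over all tested genes was 0.01. The 3 PC and 3 RC values did not overlap in 78.6% of the tested genes. The shares of 20.2% and 18.5% are the background for each list count below.

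The change from day 2 to day 9 ran against the drug response in most of the genes that had responded. The drug response was taken from TC against CC, which shares no library with RC against PC. With the same call, 3068 genes (19.3%) were lower and 2564 (16.1%) higher in TC. Of the 3068 lower under drug, 2306 (75.2%) were higher in RC than in PC, 7 were lower and 755 were not called. Of the 2564 higher under drug, 1954 (76.2%) were lower in RC than in PC, 2 were higher and 608 were not called. Read from the other side, reversed genes made up 71.7% of the genes higher in RC and 66.2% of those lower, and 906 higher and 990 lower genes had no call in TC against CC. Across the 15916 genes, which are not independent of each other, Pearson's r between both log2 fold changes was -0.835.

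The levels of the reversed genes are given as a description, since their selection by opposite calls favours PC values near TC and RC values near CC and leaves out genes that had returned by day 2. The 2306 genes lower under drug had a median log2 fold change against CC of -1.69 in TC, -1.61 in PC and 0.03 in RC, and the 1954 genes higher under drug one of 1.57, 1.67 and 0.00. PC against CC and RC against CC share libraries with RC against PC, so these medians are given side by side only. Over all tested genes, 215 (1.35%) were higher and 401 (2.52%) lower in RC than in CC. Among the 2306 genes these calls were 80 higher and 75 lower, and among the 1954 genes 39 higher and 69 lower.

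**Figure D1:**
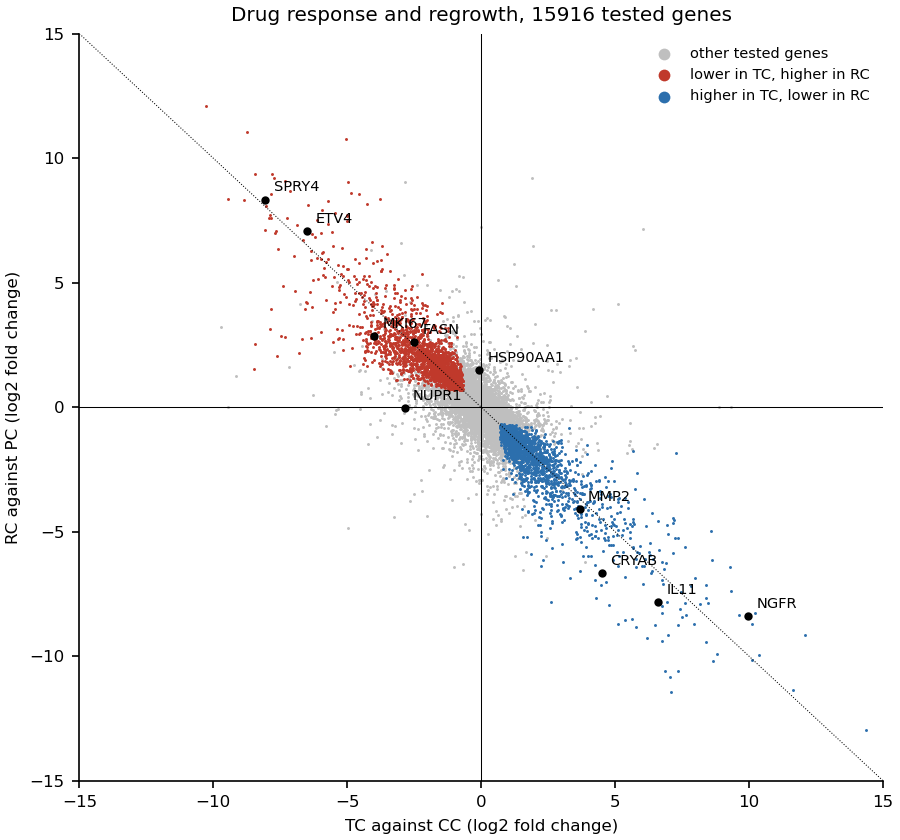
Each point is 1 of the 15916 tested genes, with the log2 fold change of TC against CC on the horizontal axis and that of RC against PC on the vertical axis. Red points (2306) were lower in TC and higher in RC, blue points (1954) higher in TC and lower in RC, grey points all others, and the dotted line marks equal and opposite changes. NGFR and SPRY4 lie far out along the line, whereas HSP90AA1 lies near 0 on the horizontal axis and NUPR1 near 0 on the vertical axis.

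Among genes with a mean scaled count of at least 500 in PC and RC and no overlap between them, most of the 12 with the largest rises had low levels at day 2. SPRY4, a Sprouty inhibitor of receptor tyrosine kinase signalling, was at 0.837, 0.674 and 0.925 CPM in the PC libraries and 253, 249 and 285 CPM in the RC libraries. It thus rose 323-fold (log2 fold change 8.34 ± 0.41 SE, adjusted p = 4.2e-09). NPPC, the gene of C-type natriuretic peptide, had at most 3 counts in each PC library and 36.9 to 42.1 CPM in RC, at least 556-fold higher. VGF, a secreted neuropeptide precursor, stood at 10.3, 10.7 and 15.8 CPM in PC and 2091, 1987 and 1924 CPM in RC. SERPINA3, a secreted protease inhibitor, went from 38.0, 47.2 and 70.7 CPM to 3460, 3200 and 3363 CPM. These genes were selected for a large fold and no overlap, so low PC levels and separate libraries are given as a description only. HAPLN1, which links hyaluronan to proteoglycans, SYTL5, a synaptotagmin-like vesicle protein, and GJB1, a connexin, rose by 8.31 ± 0.31, 8.08 ± 0.25 and 7.54 ± 0.17 on the log2 scale. SPRY1, ETV4, MCTP1, ITIH6 and CYB5R2 completed these 12 rises. All 12 had been called lower in TC than in CC, as had 71.7% of all genes called higher in RC. The 12 were picked for their rise, so this too is only a description.

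Under the same limits on level and overlap, the 12 genes with the largest falls had low levels in control cells. NGFR, the low-affinity nerve growth factor receptor and a marker of neural crest cells, was at 6002, 6256 and 6673 CPM in PC and 21.9, 18.9 and 15.3 CPM in RC. It fell 338-fold (log2 fold change -8.40 ± 0.23 SE, adjusted p = 7.1e-11) and its RC libraries still lay above the 4.53 ± 1.13 CPM (SD, n = 3) of CC. CRYGS, a lens crystallin, went from 242, 281 and 284 CPM to 0.0492, 0.0712 and 0.17 CPM. ANGPTL7, a secreted angiopoietin-like protein, went from 463, 485 and 511 CPM to 1.01, 0.623 and 0.605 CPM. Both had higher values in PC than in TC, where CRYGS was at 106 ± 50.3 and ANGPTL7 at 141 ± 40.1 CPM. NCAN, the proteoglycan neurocan, had at most 3 counts in each RC library and 21.4 to 33.0 CPM in PC, at least 456-fold lower in RC. LRRC15, CRISPLD2, TMEM59L, FLRT1, IL11, SLITRK6 and SAMD11 were also among these 12 falls, with log2 fold changes from -8.72 to -7.03. IL11 is a cytokine of the interleukin-6 family.

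Genes that report ERK activity rose. Of the 19 tested in a list of ERK output and feedback genes, 14 were called higher and 1 lower, with a median log2 fold change of 2.50. Their median against CC was -2.95 in TC, -3.23 in PC and -0.22 in RC, so the list stood no higher at day 2 than under drug. DUSP6, the phosphatase that inactivates ERK, was at 6.09, 5.13 and 4.51 CPM in PC and 125, 134 and 145 CPM in RC (log2 fold change 4.69 ± 0.47, adjusted p = 2.2e-06). Each RC value lay above every PC value, and within the wide spread of CC (156 ± 122 CPM). PC and RC values did not overlap in 78.6% of all tested genes. ETV4 and ETV5, ETS factors of the PEA3 group, rose by 7.06 ± 0.11 and 5.54 ± 0.11 on the log2 scale and stood in RC at -0.02 and 0.00 against CC. ETV4 was at 1.49, 1.63 and 2.08 CPM in PC and 234, 226 and 237 CPM in RC, beside 235 ± 4.08 CPM in CC. MYC rose from 6.54, 6.41 and 5.99 CPM to 41.9, 41.8 and 41.8 CPM. CCND1, which encodes the cyclin D1 that ERK signalling induces, rose from 77.7, 81.2 and 93.2 CPM to 223, 210 and 214 CPM. EPHA2, an ephrin receptor, was the member that fell (35.9, 39.5 and 41.8 CPM against 21.1, 18.2 and 16.1 CPM). DUSP5, FOSL1, SPRED3 and EPHA4 were not called.

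**Figure D2:**
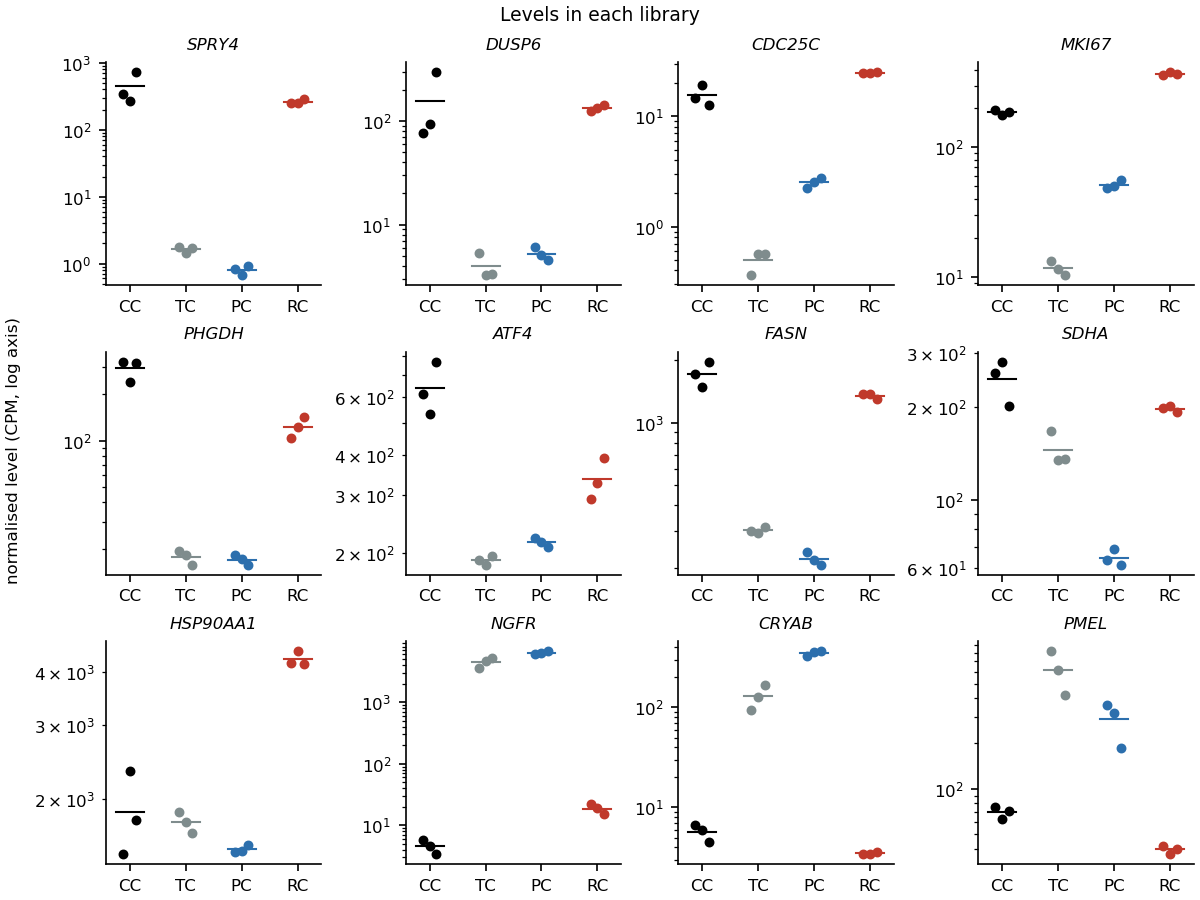
Normalised level (CPM, log axis) of 12 genes in each library of CC, TC, PC and RC, with 1 point per library and a line at the mean of 3. SPRY4, DUSP6, MKI67 and PHGDH are low in TC and PC and high in RC, whereas NGFR, CRYAB and PMEL are high in TC and PC and low in RC, and HSP90AA1 is highest in the 3 RC libraries (4194 to 4486 CPM).

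Mitotic genes moved as a block, and they had already risen part of the way by day 2. All but 1 of the 65 tested members, 64, were called higher in RC than in PC and none lower, and the median log2 fold change was 2.38. The list's median against CC was -3.57 in TC, -1.67 in PC and 0.75 in RC. In RC, 14 of the 65 were called higher than in CC, beside 1.35% of all tested genes. MKI67, the proliferation antigen Ki-67, was at 48.1, 50 and 56.4 CPM in PC and 363, 380 and 371 CPM in RC, beside 11.7 ± 1.42 CPM in TC and 188 ± 8.88 CPM in CC. It rose by 2.85 ± 0.09 on the log2 scale (adjusted p = 1.9e-10), and its RC libraries lay above every library of the other groups. CDC25C, the phosphatase that activates CDK1, went from 2.22, 2.56 and 2.78 CPM to 24.6, 24.6 and 25.1 CPM. PTTG1 (securin), CENPF (a kinetochore protein) and BUB1 (a spindle checkpoint kinase) rose by 3.44 ± 0.15, 3.43 ± 0.15 and 3.23 ± 0.20. The cyclins and CDK, the mitotic kinases, the kinetochore and checkpoint genes, the kinesins and spindle genes and the genes of mitotic exit and chromosome structure had medians of 2.49, 2.59, 2.31, 2.39 and 2.16. KIFC1, a minus-end-directed kinesin, was the member not called (log2 fold change 1.60 ± 1.12, adjusted p = 0.219), and its CC level was erratic (4.70 ± 6.21 CPM).

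Replication genes rose as well. Of 43 tested members of the E2F and DNA replication list, 41 were called higher and none lower (median 2.06), and only GINS3 and TIPIN were not called. Their median against CC was -1.95 in TC, -1.28 in PC and 0.60 in RC. All 12 licensing genes, which load the replicative helicase onto origins, were called higher. CDT1, which recruits that helicase, rose from 15.7, 16.8 and 17.8 CPM to 110, 112 and 112 CPM (2.73 ± 0.07). POLE, the catalytic subunit of DNA polymerase epsilon, rose from 8.79, 8.89 and 9.48 CPM to 82.5, 82.2 and 81.6 CPM (3.18 ± 0.11). PC and RC libraries did not overlap in either gene, as in 78.6% of all tested genes. MCM2, a helicase subunit, and PCNA, the sliding clamp, rose by 2.41 ± 0.10 and 1.67 ± 0.12.

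Promoter windows were searched for letters known from mitotic and replication genes. The CHR element TTTGAA, bound by the complexes that repress or activate mitotic genes, and the E2F-type letters TTTCCCGC were searched on both strands in RefSeq windows of 300 bases, from 250 before to 50 after each annotated start (GRCh38.p14). The CHR letters were in 45 of 72 windows of mitotic genes (62.5%), against 15.2% of all 35116 windows and 13.4% of windows of genes higher in RC. Within the last 60 bases before the start they were in 34.7% of the mitotic windows and 2.98% of all windows. The E2F letters were in 10 of 49 windows of the replication list (20.4%) and in 1.63% of all windows. Of 65 mitotic and 43 replication genes, 57 and 39 had a window. The following lines give 140 bases, from 100 before to 40 after the start and on the gene's strand, for 6 genes named by rule, shown because they hold the letters within those 60 bases. Windows without the letters are not shown. Capitals mark, on either strand, the CHR letters in the first 4 (CDC25C at chr5:138331765-138331904, PLK1 at chr16:23678789-23678928, MKI67 at chr10:128126384-128126523, CDK1 at chr10:60778378-60778517) and the E2F letters, here on the opposite strand, in the last 2 (CDT1 at chr16:88803689-88803828, PCNA at chr20:5126583-5126722).
CDC25C: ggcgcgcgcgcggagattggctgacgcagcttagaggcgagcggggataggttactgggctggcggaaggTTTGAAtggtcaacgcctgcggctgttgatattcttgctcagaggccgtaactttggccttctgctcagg
PLK1: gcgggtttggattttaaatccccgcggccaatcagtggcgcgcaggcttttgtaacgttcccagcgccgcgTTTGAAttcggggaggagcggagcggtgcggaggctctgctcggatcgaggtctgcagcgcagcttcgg
MKI67: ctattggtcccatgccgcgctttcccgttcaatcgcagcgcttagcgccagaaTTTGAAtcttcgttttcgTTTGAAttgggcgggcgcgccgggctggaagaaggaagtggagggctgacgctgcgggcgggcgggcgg
CDK1: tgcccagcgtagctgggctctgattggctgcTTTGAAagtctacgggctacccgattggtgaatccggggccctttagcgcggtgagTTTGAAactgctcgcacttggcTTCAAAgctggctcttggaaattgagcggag
CDT1: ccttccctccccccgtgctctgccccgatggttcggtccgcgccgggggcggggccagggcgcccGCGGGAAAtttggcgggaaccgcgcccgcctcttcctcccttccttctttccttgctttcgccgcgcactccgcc
PCNA: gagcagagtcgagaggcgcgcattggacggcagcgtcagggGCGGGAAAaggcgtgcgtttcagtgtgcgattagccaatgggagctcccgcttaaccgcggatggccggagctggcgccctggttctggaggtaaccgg
In CDC25C, PLK1 and MKI67 a CHR match begins 30, 29 and 29 bases before the start. The ETS core CCGGAAGT was in none of 23 windows of the ERK output list and in 4.14% of all windows. The letters TCACGTGA of the CLEAR box, known from lysosomal genes, were in 4 of 38 windows of the lysosome list (10.5%) and 0.98% of all windows, and the interferon-stimulated response element core was in 19 of 28 windows of the interferon list (67.9%) and 3.57% of all. A match is a description of letters and not a bound site, and no match says only that these letters are not in the window.

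DNA repair genes of the homologous recombination and Fanconi pathways rose in the same interval. Of 29 tested, 24 were called higher and none lower (median 1.89), and their median against CC was -1.88 in TC, -1.06 in PC and 0.65 in RC. BRCA1 was at 21.8, 23.1 and 21.9 CPM in PC and 113, 128 and 132 CPM in RC (2.48 ± 0.09, adjusted p = 3.4e-10). RAD54L, EXO1, FANCD2 and BLM, a translocase, a nuclease, the monoubiquitinated Fanconi protein and a helicase, rose by 2.58 to 2.89. Of the 7 mismatch repair genes, 5 were called higher. MSH3 and PMS2 were not called. In nucleotide synthesis, 17 of 22 members were called higher and 1 lower. RRM2, the small subunit of ribonucleotide reductase, had its PC libraries (114, 124 and 137 CPM) near CC (134 ± 24 CPM) and well above TC (22.4 ± 2.05 CPM), and reached 313, 313 and 290 CPM in RC. RRM1, PFAS, GMPS and PPAT rose by 1.75 to 1.99. PRPS1, a phosphoribosyl pyrophosphate synthetase, fell by 0.96.

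Among 15 G1 cyclins, CDKs, inhibitors and pocket proteins, 4 were called higher, 2 lower and 9 not called, beside 20.2% and 18.5% of all tested genes. CDK2 was at 105, 88.8 and 70.2 CPM in PC and 292, 309 and 285 CPM in RC, and CDK6 at 73.3, 69.9 and 70.4 CPM and 155, 157 and 162 CPM. CDKN2C, the inhibitor p18, had risen beyond its TC level at day 2 (88.0, 87.5 and 96.4 CPM against 37.3 ± 1.57 CPM) and fell to 41.0, 39.5 and 37.6 CPM. CDKN1A, the inhibitor p21, was at 85.4, 89.8 and 87.8 CPM in PC, near CC (94.5 ± 9.80 CPM), and fell to 50.4, 49.2 and 49.1 CPM. CDKN1B, the inhibitor p27, was not called (log2 fold change -0.01 ± 0.08) and its PC and RC libraries overlapped. Of 24 known targets of p53, 7 were called higher, 5 lower and 12 not called, beside 20.2% and 18.5% of all tested genes. GDF15, a stress-induced secreted factor, rose from 6.91, 3.67 and 3.03 CPM to 231, 248 and 282 CPM and remained below CC (1140 ± 407 CPM). PLK2, TP53I3 and TP53INP1 fell by 3.61 ± 0.17, 3.16 ± 0.09 and 2.82 ± 0.13.

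Of 15 tested BCL2 family members, 2 were called higher, 3 lower and 10 not called, which is near the share over all tested genes (20.2% and 18.5%). BMF, a BH3-only protein that promotes cell death, was at 236, 229 and 228 CPM in PC and 14.7, 16.7 and 20.2 CPM in RC, below CC (61.1 ± 8.54 CPM). BCL2L11 (BIM), which ERK signalling is known to restrain, fell from 42.1, 40.3 and 41.5 CPM to 14.2, 14.1 and 13.8 CPM. PMAIP1 (NOXA), also BH3-only, went the other way, from 0.889, 0.435 and 0.37 CPM to 16.4, 22.5 and 27.3 CPM. BCL2, the survival protein, rose by 2.2 ± 0.25. BCL2L1 fell by 0.95.

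Replication-dependent histone genes fell while the replication enzymes rose. Of 59 listed genes 31 were tested, and 21 of these were called lower and 2 higher (median -2.33). Their median against CC was 3.28 in TC, 3.48 in PC and 0.72 in RC. H2BC21 was at 87.4, 81.7 and 78.7 CPM in PC and 1.55, 1.87 and 1.99 CPM in RC (log2 fold change -5.51 ± 0.21, adjusted p = 6.2e-10). H2AC6 went from 47.9, 44.1 and 39.1 CPM to 1.75, 1.39 and 1.23 CPM, and H2BC5 from 23.8, 23.1 and 24.8 CPM to 1.16, 0.801 and 0.851 CPM. These 3 are among the histone genes known to give polyadenylated RNA outside S phase as well. H2AC20 and H2BC9 were the members that rose (2.80 ± 0.45 and 1.58 ± 0.38), from PC levels of at most 0.521 CPM, and the call of H2BC9 was lost under DESeq2 and without RC replicate 3. Histone genes are near copies of each other, so reads may be split between them, and these values are uncertain for single genes.

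**Figure D3:**
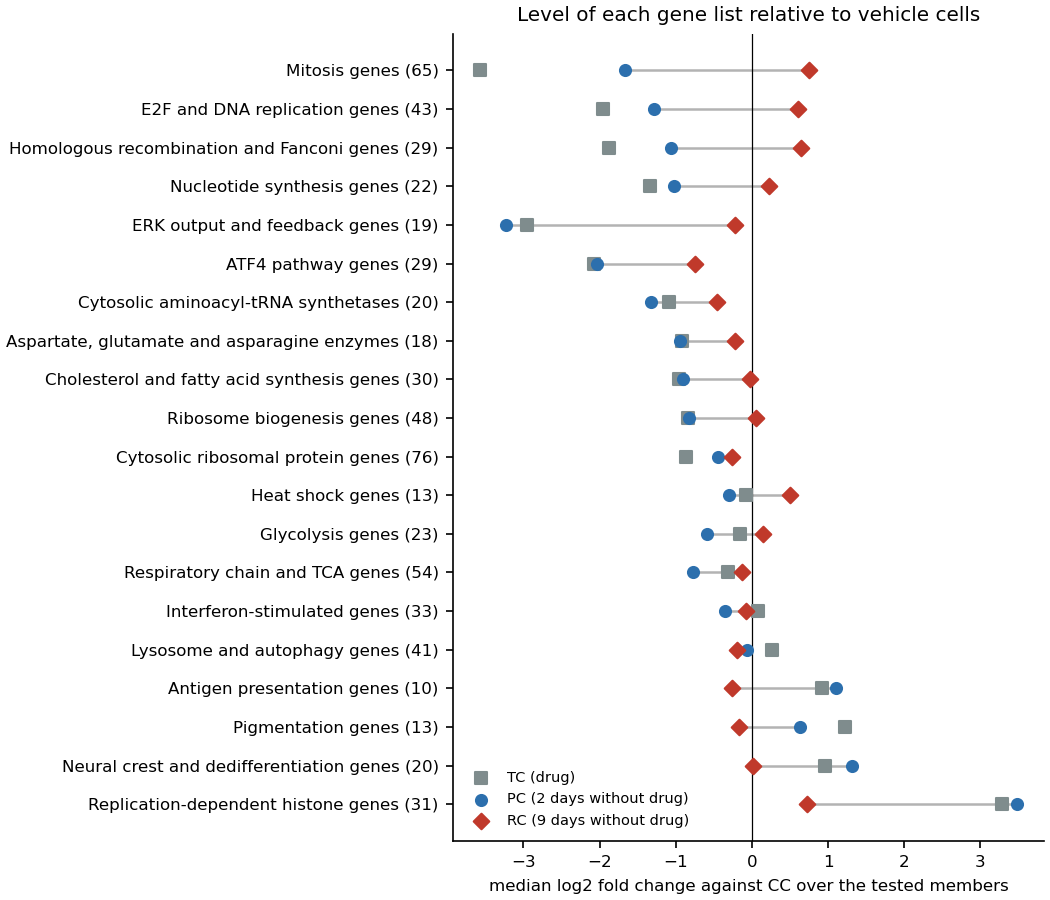
Median log2 fold change against CC (horizontal axis) of 20 gene lists in TC (grey squares), PC (blue circles) and RC (red diamonds), with the number of tested members in brackets and a grey line from PC to RC. Mitosis genes go from -3.57 in TC through -1.67 in PC to 0.75 in RC, ERK output genes from -3.23 in PC to -0.22 in RC, and replication-dependent histone genes from 3.48 in PC to 0.72 in RC.

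The genes of melanocyte identity fell back. Of 13 tested pigmentation genes, 8 were called lower and 1 higher (median -1.14). DCT, the dopachrome tautomerase of melanin synthesis, was at 3177, 2672 and 1955 CPM in PC and 436, 430 and 396 CPM in RC (log2 fold change -2.63 ± 0.19, adjusted p = 1e-07), beside 6452 ± 1317 CPM in TC. PMEL, which builds the melanosome's fibrils, was at 358, 321 and 187 CPM in PC, with the third library lowest, and 41.9, 36.9 and 40.0 CPM in RC. Both had started to fall before day 2, since their PC means lay below TC. TRPM1, a channel of melanocytes, was absent from every CC and RC library and had 1.39 to 4.60 CPM in PC, at least 44-fold lower in RC. MITF, the regulator of these genes, was not called (288, 228 and 147 CPM in PC, 334, 360 and 348 CPM in RC, log2 fold change 0.66 ± 0.25, adjusted p = 0.0336), whereas SOX10, its upstream activator, fell by 0.76 ± 0.05. SLC24A5, a melanosome exchanger, rose by 1.16 ± 0.18.

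Neural crest and dedifferentiation genes fell and rose in nearly equal numbers, 10 and 8 of 20 tested (median -1.33). Among all tested genes, 18.5% were called lower and 20.2% higher. All 17 members of the list called in TC against CC were called in the opposite direction in RC against PC. Over all tested genes this held for 75.2% of those lower and 76.2% of those higher in TC, so reversal is not particular to this list. SOX2, a pluripotency and neural stem cell factor, was at 94.4, 102 and 119 CPM in PC and 3.20, 3.56 and 3.31 CPM in RC (log2 fold change -4.97 ± 0.15, adjusted p = 1.5e-10). It stood at 0.19 ± 0.111 CPM in CC, so the RC libraries kept a level 4.13 above CC on the log2 scale. CD36, a fatty acid receptor, fell from 18.1, 20.6 and 14.4 CPM to at most 0.16 CPM. RXRG, a retinoid receptor, went the other way, from 5.05, 5.39 and 3.33 CPM to 146, 147 and 156 CPM, and NT5E (CD73) rose by 3.91 ± 0.09. RXRG is often listed as a marker of neural crest-like melanoma cells together with NGFR, and in these libraries the changes of both had opposite signs.

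Of 24 tested receptors and adaptors of growth factor signalling, 7 were called higher, 10 lower and 7 not called. Over all tested genes, 20.2% were called higher and 18.5% lower. FGFR3 was at 33.4, 37.7 and 44 CPM in PC and 0.96, 1.55 and 1.08 CPM in RC, and AXL at 94.1, 108 and 134 CPM and 17.5, 16.6 and 12.7 CPM. AXL remained above CC (6.96 ± 0.59 CPM). ERBB3 fell from 629, 653 and 680 CPM to 334, 318 and 319 CPM and PDGFRB from 11.6, 10.6 and 12.5 CPM to 5.22, 4.24 and 5.01 CPM. FGFR1 rose from 14.1, 13.4 and 13.5 CPM to 51.3, 44.6 and 39.4 CPM, EGFR from 1.05, 0.891 and 1.16 CPM to 2.88, 3.65 and 3.03 CPM, and GAB2, a docking protein, by 1.99 ± 0.08. NTRK2, FGFR2 and KIT fell by 3.34 to 4.73 from PC levels of at most 4.67 CPM.

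Of 37 extracellular matrix genes 10 were called higher, 11 lower and 16 not called, and of 14 integrin genes 5 were higher, 3 lower and 6 not called, beside 20.2% higher and 18.5% lower over all tested genes. MMP2, the gelatinase A, was at 1362, 1544 and 1556 CPM in PC and 95.1, 88.3 and 76.6 CPM in RC, and COL5A2, a fibrillar collagen chain, at 828, 897 and 945 CPM and 93.0, 80.5 and 83.7 CPM. LOXL4, a lysyl oxidase, rose from 32.7, 38.1 and 41.3 CPM to 658, 600 and 661 CPM, still under CC (1828 ± 245 CPM). Among the integrin chains, ITGB3 rose from 97.8, 92.9 and 93.2 CPM to 1029, 940 and 920 CPM, and ITGB5 and ITGA10 rose by 2.53 ± 0.10 and 5.93 ± 0.24. ITGA2 and ITGA1, collagen receptors with beta 1, fell by 2.75 ± 0.17 and 1.94 ± 0.12. FN1, fibronectin, was not called (log2 fold change -0.15 ± 0.22). Of 15 targets of YAP and TEAD, 6 were called lower, 2 higher and 7 not called, with CCN1 at 101, 105 and 109 CPM in PC and 18, 17.2 and 19.9 CPM in RC.

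**Figure D4:**
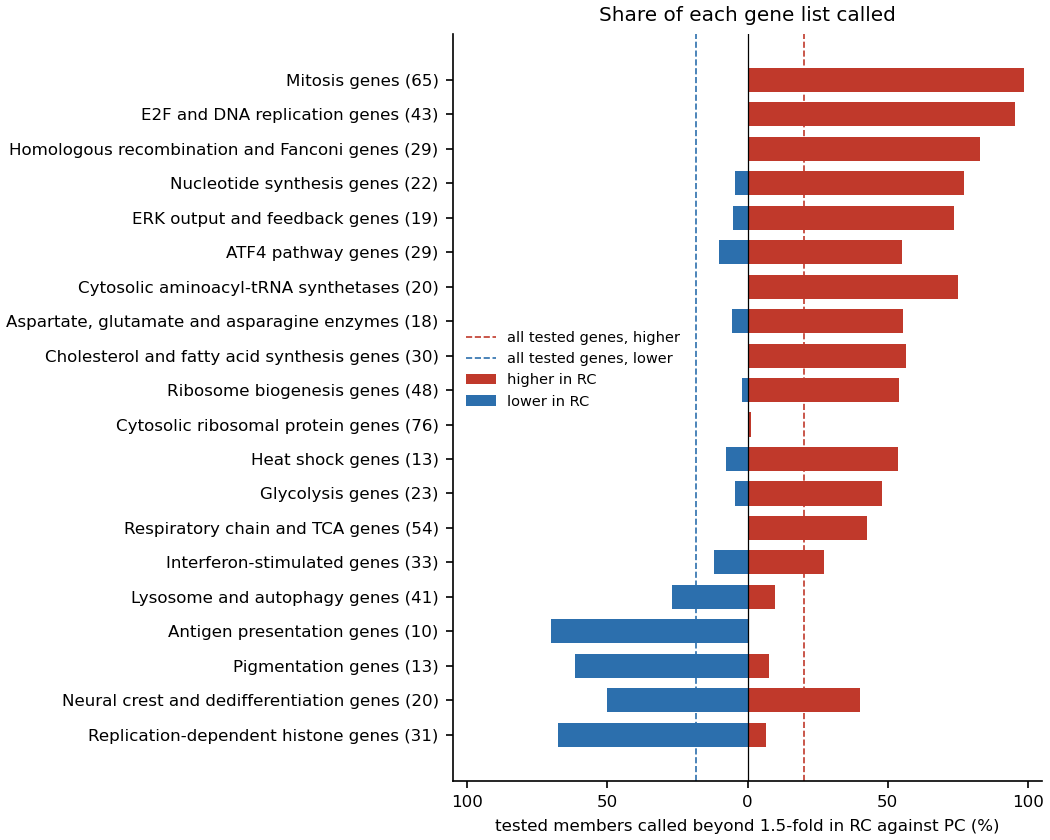
Share of the tested members of 20 gene lists (numbers in brackets) that were called beyond 1.5-fold higher (red, to the right) or lower (blue, to the left) in RC against PC, in percent. Dashed lines mark the share among all tested genes, 20.2% higher and 18.5% lower. Mitosis genes (64 of 65) and E2F and DNA replication genes (41 of 43) reach far past the line, and cytosolic ribosomal protein genes (1 of 76) fall short of it.

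More genes of amino acid supply rose than fell. In the ATF4 pathway, which answers amino acid shortage and other stress, 16 of 29 were called higher and 3 lower (median 1.28). The list's median against CC was -2.07 in TC, -2.04 in PC and -0.75 in RC. In RC against CC 4 of 29 members were called lower, none higher and 25 not called, beside 2.52% lower and 1.35% higher of all tested genes. PHGDH, the first enzyme of serine synthesis, was at 18.2, 17.3 and 15.9 CPM in PC and 104, 123 and 142 CPM in RC (log2 fold change 2.84 ± 0.14, adjusted p = 5.3e-09), beside 292 ± 46.2 CPM in CC. ATF4 itself was at 222, 215 and 208 CPM in PC and 292, 326 and 389 CPM in RC, which passed the test of any change (0.64 ± 0.12, adjusted p = 0.00058) but not that of 1.5-fold, and CC stood at 639 ± 120 CPM. CHAC1, which degrades glutathione, rose from at most 1.09 CPM to 7.85, 13.8 and 21.3 CPM, and its 3 RC libraries spread widely. ATF3 and ATF5, bZIP factors of the same response, fell by 3.87 ± 0.23 and 2.14 ± 0.18. NUPR1, a stress-induced nuclear protein, did not return (log2 fold change -0.04 ± 0.42). Its libraries overlapped (32.4, 27.1 and 20.5 CPM in PC, 10.8, 20.7 and 45.9 CPM in RC) and CC stood at 206 ± 71.9 CPM.

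The aminoacyl-tRNA synthetases, which charge tRNAs with amino acids, followed. Of 20 cytosolic enzymes, 15 were called higher and none lower (median 0.93), and the median against CC was -1.09 in TC, -1.33 in PC and -0.46 in RC. AARS1 was at 90.1, 91.2 and 92.8 CPM in PC and 290, 362 and 457 CPM in RC, and GARS1 at 77.7, 72.8 and 75.3 CPM and 226, 279 and 337 CPM. EPRS1, which charges glutamate and proline tRNAs, rose by 0.91 ± 0.08. VARS1 is among the 15 only through 1 library (24.0 CPM in RC2 and at most 0.246 in the other 5), most reads of that gene are listed under numbered copies, and its call was lost under several other settings. Of 15 mitochondrial enzymes, 7 were called higher and none lower, among them LARS2 and IARS2 with 2.2 ± 0.09 and 2.00 ± 0.10. In the metabolism of aspartate, glutamate and asparagine, 10 of 18 were called higher and 1 lower. GOT1, the cytosolic aspartate aminotransferase, rose from 19.7, 17.7 and 17.1 CPM to 78.7, 75.7 and 80.1 CPM. ABAT, which degrades the amino acid GABA, fell by 1.33 ± 0.16.

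Ribosome biogenesis genes were called more often than ribosomal protein genes beyond 1.5-fold. Of 48 ribosome biogenesis genes, 26 were called higher and 1 lower (median 0.81). NCL, nucleolin, was at 573, 583 and 597 CPM in PC and 1410, 1479 and 1462 CPM in RC, and POLR1B, a subunit of RNA polymerase I, at 60.8, 61.8 and 68.3 CPM and 149, 155 and 158 CPM. UBTF, which activates ribosomal DNA, fell by 0.74 ± 0.05. Of 76 cytosolic ribosomal protein genes, 1 was called higher and none lower. It was RPL17, from at most 0.439 CPM to 0.908 to 1.11 CPM, a call lost under DESeq2. In TC against CC, however, 53 had been called lower and none higher, beside 19.3% and 16.1% of all tested genes. The list's median against CC was -0.86 in TC, -0.45 in PC and -0.26 in RC, and the median from PC to RC was 0.20. In the test of any change, 37 of the 76 were higher and 7 lower, beside 35.7% and 34.2% of all tested genes. Many ribosomal protein genes have processed copies in the genome, and RPS2 was erratic (86.9, 16.2 and 2.17 CPM in PC, 4.51, 41.7 and 53.3 CPM in RC).

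Genes of lipid synthesis rose more often than they fell. Of 30 cholesterol and fatty acid genes, 17 were called higher and none lower (median 0.98). For RC against CC the median was -0.02, and none of the 30 was called there in either direction. Of all tested genes, 1.35% were called higher and 2.52% lower in RC than in CC. FASN, the fatty acid synthase, was at 239, 218 and 207 CPM in PC and 1377, 1375 and 1300 CPM in RC (log2 fold change 2.61 ± 0.10, adjusted p = 5.1e-10), beside 1722 ± 243 CPM in CC. SCD, a desaturase, rose from 247, 255 and 250 CPM to 958, 887 and 859 CPM. NSDHL was called, but its RC libraries ranged from 0.463 to 16.1 CPM and the call was lost under limma-voom.

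Genes of energy metabolism had lower medians at day 2 than at the end of treatment. Of 54 respiratory chain and TCA cycle genes encoded in the nucleus, 23 were called higher in RC than in PC and none lower (median 0.63). In TC against CC, 2 of the 54 had been called lower and none higher, beside 19.3% and 16.1% of all tested genes. The list's median against CC was -0.31 in TC, -0.78 in PC and -0.13 in RC, and the median of PC against TC was -0.46. SDHA, a subunit of complex II, was at 63.5, 69.3 and 61.5 CPM in PC and 199, 201 and 192 CPM in RC (log2 fold change 1.61 ± 0.12, adjusted p = 1.5e-07), beside 145 ± 18.6 CPM in TC and 246 ± 41.1 CPM in CC. The PC libraries lay below those of all other groups. ATP5F1B, a subunit of ATP synthase, went from 664, 652 and 603 CPM to 1581, 1566 and 1582 CPM, and FH, fumarase, rose by 1.43 ± 0.11. PPARGC1A, a coactivator of mitochondrial genes, was at 28.6, 23.5 and 14.7 CPM in PC and 86.1, 94.7 and 91.2 CPM in RC, beside 62.6 ± 18.5 CPM in TC. Ribosomal and transfer RNA of mitochondria took 2.41% to 3.00% of counts in PC and 1.47% to 1.54% in RC, and CC alone ran from 1.57% to 2.42%. Ribosomal RNA had been depleted and the RNA was cytoplasmic, so this share is not a measure of mitochondrial expression. The part of depletion and extraction in it was not tested. Glycolysis genes showed the same order as the respiratory chain and TCA cycle genes. Of 23 tested, 11 were called higher and 1 lower in RC, and the median against CC was -0.16 in TC and -0.59 in PC. HK1, hexokinase, rose from 99.1, 100.0 and 106 CPM to 306, 318 and 328 CPM, and SLC2A3, a glucose transporter, from 16.2, 17.9 and 17.1 CPM to 116, 110 and 114 CPM. SLC16A3, a lactate exporter, fell by 2.2 ± 0.23.

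Chaperones of the cytosol and mitochondria were higher in RC than in PC without a common direction under drug. Of 13 heat shock genes, 7 were called higher and 1 lower (median 1.17). The median against CC was -0.08 in TC, -0.30 in PC and 0.50 in RC. In TC against CC 4 members were called higher and 4 lower, beside 16.1% and 19.3% of all tested genes. HSP90AA1, the stress-inducible HSP90, was at 1495, 1501 and 1553 CPM in PC and 4208, 4486 and 4194 CPM in RC (log2 fold change 1.5 ± 0.13, adjusted p = 4.3e-07). CC stood at 1861 ± 432 CPM and TC at 1757 ± 103 CPM. STIP1, which passes clients from HSP70 to HSP90, is not among these 13 genes. It was at 206, 204 and 220 CPM in PC and 451, 448 and 418 CPM in RC, beside 219 ± 30.6 CPM in CC. HSPD1, the mitochondrial chaperonin, rose by 2.23 ± 0.08 and BAG3, a co-chaperone, by 1.92 ± 0.09. CRYAB, a small heat shock protein, ran the other way, from 327, 360 and 363 CPM to 3.42, 3.45 and 3.56 CPM. Of 18 ER chaperone and unfolded protein genes, none was called higher and 3 lower, beside 20.2% and 18.5% of all tested genes. The 3 were DNAJB9, DNAJC3 and CALR (falls of 1.81, 1.13 and 0.92), and the list's median of -0.12 changed sign under other settings.

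Among 41 lysosome and autophagy genes, 11 were called lower, 4 higher and 26 not called (median -0.40), where 18.5% of all tested genes were lower. CTSD, cathepsin D, was at 1726, 1830 and 1965 CPM in PC and 308, 275 and 264 CPM in RC (log2 fold change -2.70 ± 0.11, adjusted p = 1.3e-09), beside 286 ± 16 CPM in CC. GABARAPL1, an autophagosome protein, fell by 1.71 ± 0.08 and CTSF by 2.11 ± 0.11, while NPC1, which exports cholesterol from lysosomes, rose by 1.48 ± 0.10. Of 10 tested antigen presentation genes, 7 were called lower and none higher. CD74, the invariant chain of class II, went from 3400, 3345 and 3867 CPM to 1118, 996 and 960 CPM, CIITA, the class II transactivator, from 120, 115 and 137 CPM to 43.7, 43.8 and 49.6 CPM, and B2M, the class I light chain, from 151, 172 and 162 CPM to 69.3, 70.2 and 68.2 CPM. HLA-DPB1 is uncertain, since its call was lost under several other settings. Among NRF2 targets, 4 of 18 were called higher and 2 lower, beside 20.2% and 18.5% of all tested genes. FTL, ferritin light chain, was at 2938, 3010 and 2964 CPM in PC and 1414, 1373 and 1379 CPM in RC.

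Interferon-stimulated genes and cytokines showed no common direction. Of 33 interferon-stimulated genes, 9 were called higher and 4 lower, beside 20.2% and 18.5% of all tested genes. The list's median of 0.07 changed sign under other settings. OAS3, an oligoadenylate synthetase, rose from 29.0, 28.7 and 29.5 CPM to 87.5, 87.3 and 86.4 CPM, and PARP9 from 40.3, 42.2 and 42.0 CPM to 116, 118 and 119 CPM. IFITM3, a membrane restriction factor, fell from 309, 321 and 352 CPM to 138, 131 and 134 CPM, and IFITM1 to 0.689, 0.997 and 1.08 CPM, under CC (6.42 ± 1.36 CPM). ISG15 was at 32.2, 35.2 and 36.5 CPM in PC and 19.1, 18.1 and 18.2 CPM in RC, and its call was lost under several other settings. Of 7 tested cytokine genes, 4 were called higher and 2 lower, with CXCL8 and CXCL1 at most 0.659 CPM in any of the 6 libraries. CXCL14, a chemokine, was absent from CC and RC and at 11.2, 22.4 and 32.5 CPM in PC, at least 353-fold lower in RC, though its call was lost under limma-voom.

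**Figure D5:**
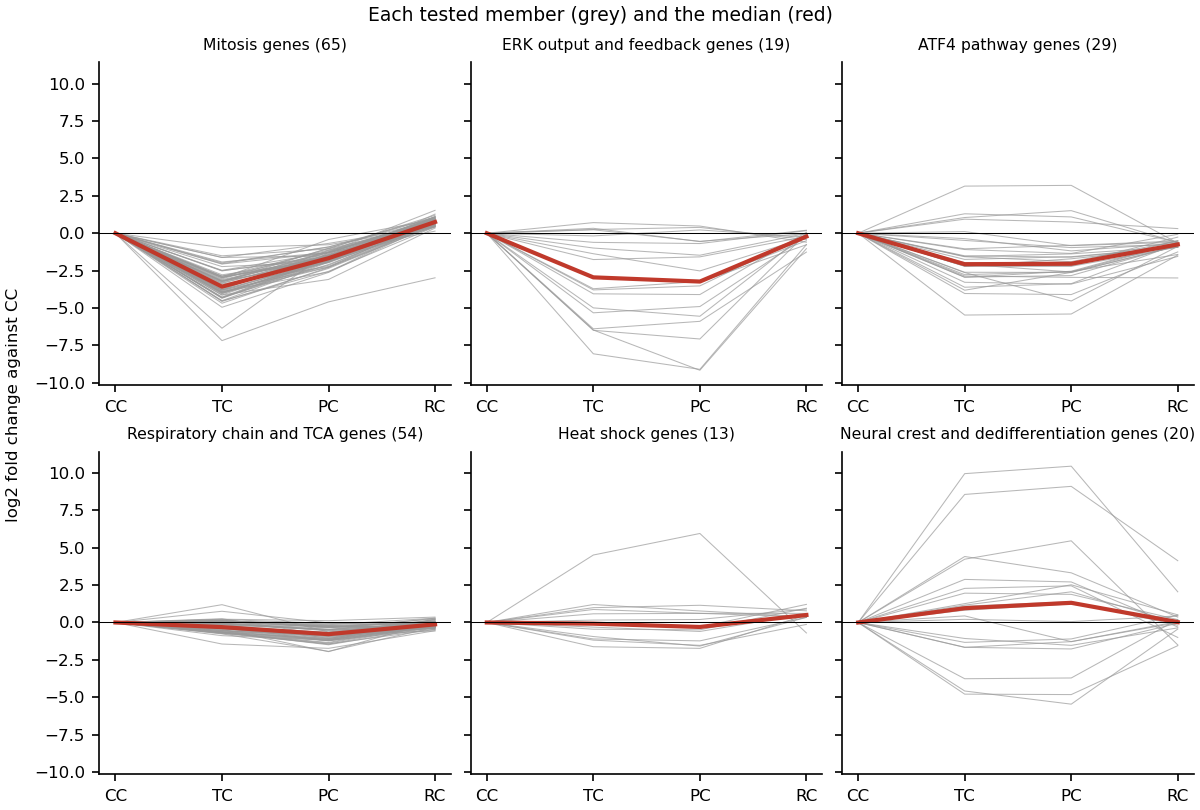
Log2 fold change against CC (vertical axis) in TC, PC and RC for each tested member (grey lines) and the median (red line) of 6 gene lists, with CC at 0 by definition and member numbers in brackets. Mitosis genes climb in both steps, ERK output and ATF4 pathway genes climb after PC only, and respiratory chain genes dip to a median of -0.78 in PC.

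Some genes did not follow the reversal. Of the 9 genes called in the same direction in both comparisons, DHRS3, a retinal reductase, was the 1 that met the filters on level and overlap. It was at 172 ± 42.5 CPM in CC, 313 ± 22.6 CPM in TC, 48.8, 43.7 and 40.8 CPM in PC and 141, 126 and 129 CPM in RC. Its PC libraries lay below every other library. Among genes with no sign of a drug response (adjusted p above 0.5 in TC against CC), AIFM1, a mitochondrial flavoprotein, was lower at day 2 and returned (46.0, 48.4 and 41.7 CPM in PC, 105, 107 and 103 CPM in RC, 97.2 ± 11.4 CPM in CC). FMN2, a formin, was higher at day 2 than in CC (197, 189 and 187 CPM against 119 ± 5.93 CPM) and fell to 59.3, 71.1 and 75.2 CPM in RC. C15orf54 was higher under drug and had not returned: it stood at 1.67 ± 0.485 CPM in CC, 6.82 ± 1.12 CPM in TC, 16.4, 17.7 and 19.4 CPM in PC and 19.5, 18 and 18.9 CPM in RC. FAP, a cell surface protease, was lower at day 2 than under drug, and its PC and RC libraries overlapped. It was at 68.4 ± 10.2 CPM in TC, 15.8, 22.6 and 24.3 CPM in PC and 19.9, 20.1 and 23.6 CPM in RC. GAS5, a host gene of small nucleolar RNAs, was at 12.9 ± 1.32 CPM in TC and overlapped between PC (21.1, 21.4 and 16.3 CPM) and RC (18.6, 17.8 and 21.3 CPM), both below CC (32.5 ± 3.79 CPM).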

How the data were processed

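The deposited table holds raw read counts per gene for 12 A375 libraries, 3 each of CC, TC, PC and RC. The authors trimmed reads with fastp 0.20.1, aligned them to GRCh38.p13 with HISAT2 2.2.1 and counted them on exons with HTSeq 0.13.5 and the NCBI annotation. Strandedness and multiply aligned reads are not given in the sources used here. The table lists 5084 numbered copies of genes, kept as separate entries.

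Genes with a mean scaled count of at least 10 were tested in edgeR 4.0.16 (R 4.3.3) with TMM factors, 1 mean per group over all 12 libraries, and Benjamini-Hochberg adjusted p-values over all tested genes. Calls used glmQLFTest (adjusted p under 0.05) or glmTreat at 1.5-fold (at most 0.05). SE is of the log2 fold change. A fold against a group with no library above 3 counts is a bound, set at 3 counts per library. It does not allow for counting error above 3 counts or for the spread between libraries. The code was tested on simulated data with far fewer changed genes than the real data. There the 1.5-fold call found 32 of 100 genes changed 2-fold, 82 of 100 changed 4-fold and 1 of 15716 unchanged genes. A gene not called is therefore not shown to be unchanged.

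The members and the gene lists were chosen with earlier results of these data known. Named genes are the 12 largest rises and falls (mean scaled count of at least 500, no overlap), the 4 called members with the largest change and up to 2 opposed ones per list, a set of anchor genes, and up to 6 each of those called alike in TC against CC and RC against PC, called in RC against PC with adjusted p above 0.5 under drug, or the converse. Further members are named as exceptions, chosen after their values were seen. Alternatives were library totals, DESeq2 1.42.0, limma-voom (limma 3.58.1), a lower filter, the 2 groups alone, a replicate block and leaving out each library. The genes encoded by mitochondrial DNA (0 of 13 matched) and amino acid composition are not analysed here. Some genes that this rule names are not reported here.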

Additional observations from a re-analysis of the deposited data

How the results depend on the processing

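Across library totals in place of TMM, DESeq2, limma-voom, a filter of a summed count of at least 2, a fit of the 2 groups alone and a replicate block, the genes higher beyond 1.5-fold in RC numbered 2619 to 3465 (3214 as reported) and those lower 2462 to 3185 (2951). Leaving out each PC or RC library gave 2938 to 3023 and 2738 to 2827. Of the 6165 reported calls, DESeq2 kept 5078 and limma-voom 5346, and no setting reversed one. The share of drug-lowered genes that were higher in RC ran from 71.8% to 79.3%, and that of drug-raised genes lower in RC from 74.5% to 81.1%. With any 1 of the 12 libraries left out these ran from 72.2% to 76.6% and from 73.6% to 78.4%. Of 185 named genes called, 172 kept the call under every setting and none changed direction; the other 13, among them CXCL14, H2BC9, HLA-DPB1, IARS1, ISG15, LDHA, NSDHL, PTPN14, RPL17, SLC7A11, VARS1 and VWF, lost it under at least 1. The medians of the interferon-stimulated genes (-0.06 to 0.16) and the ER chaperone genes (-0.19 to 0.01) changed sign. Replicate numbers showed no pairing of PC with RC: deviations of same-numbered libraries correlated at 0.00, -0.04 and 0.01. Same-numbered TC and CC libraries correlated at 0.04, 0.05 and 0.08, and differently numbered ones at -0.07 to 0.02. The replicate block gave 3226 genes higher and 2952 lower in RC than in PC. PC and RC, with 3 libraries each, carry different day labels, and none of these settings separates the day of harvest from the group in RC against PC.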
